A study of Rattus norvegicus with 12 samples.

Results

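A set of 10 genes of the glutathione and thioredoxin systems, known targets of the transcription factor NRF2, was followed in primary rat cardiomyocytes exposed to SIN-1. They were chosen by symbol as Gclc, Gclm, Gss, Gsr, Slc7a11, Txn1, Txnrd1, Srxn1, Prdx1 and Osgin1. All 10 were among the 18166 named genes measured, and each had 1 probe on the array with that single symbol. SIN-1 (3-morpholinosydnonimine) releases nitric oxide and superoxide together and is used as a donor of peroxynitrite. Cells were given SIN-1 for 70 min, 4 h or 8 h or left as controls, and each of these 4 groups had its RNA read on 3 whole-transcript arrays of 1 colour, 12 arrays in all. All cells were labelled wt and shared a DMEM/F12 medium supplemented with fetal bovine and horse serum. The sources used here do not give the dose of SIN-1, the strain and age of the rats, the culture time of the control or any vehicle. Replicates are described as biological, with nothing on whether cultures were separate, so p-values measure the spread between these arrays.

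The arrays of a group correlated at 0.9906 to 0.995 across genes, and array medians ran from 4.98 to 5.12 log2 units. The 3 highest medians belonged to 70 min replicates 3 and 2 and 4 h replicate 3, at 5.12, 5.11 and 5.09. Levels of the labelled cell type's markers were low. Over all 12 arrays the cardiac myosin genes Myh6 and Myh7 lay between 3.12 and 4.51 and between 2.94 and 3.88 log2 units, where the first quartile and the median of all genes' means were 4.42 and 5.75. The sarcomere genes Actn2 and Myl3 and the calcium release channel gene Ryr2 reached at most 4.62, 4.70 and 4.36. Tnnt2 and Tnni3, which encode cardiac troponins, reached 6.09 and 5.87, and Pln, which encodes the calcium pump regulator phospholamban, reached 8.37. The collagen gene Col1a1 ran from 12.74 to 12.84 and the smooth muscle gene Tagln from 12.37 to 12.56, each the highest marker of its list. Other fibroblast markers varied: Col1a2, Col3a1, Postn and Lum reached 12.54, 11.98, 11.71 and 9.31, but Dcn, Thy1 and Pdgfra only 6.53, 6.39 and 5.83. Of the other smooth muscle markers, Smtn reached 9.41 and Myh11 5.98. Levels of different probes are not strictly comparable, so these values describe the cultures only broadly.

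Glutathione is a cysteine-containing tripeptide that serves as the main small thiol of the cell, and thioredoxin is a small protein that reduces disulfides in other proteins. Both are kept reduced by flavoenzymes that draw on NADPH. Under oxidative or electrophilic stress NRF2 escapes its repressor KEAP1, pairs with small MAF proteins and binds antioxidant response elements in genes of both systems. In heart cells these systems buffer peroxides and peroxynitrite.

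Antioxidant response elements share the letters TGACNNNGC, and the related AP-1 site has the letters TGANTCA; a stretch can match both. Windows from 250 bases before to 50 bases after the annotated start were searched on both strands in RefSeq sequence of build GRCr8. A window was listed for 9 members (not for Gsr), and Txnrd1 had 2, giving 10 windows. TGACNNNGC was found in 3 of the 10, those of Gclm, Prdx1 and 1 start of Txnrd1, against 12.1% of all 33469 windows. TGANTCA was found in 2, those of Srxn1 and Prdx1, against 7.3% of all windows. These 4 windows are printed beside their genes. A match describes letters and is not evidence of binding, and elements outside the window were not searched.

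After 70 min of SIN-1, 5 of the 10 genes had risen (Gclc, Gss, Txnrd1, Srxn1 and Osgin1) and none had fallen, by limma at an adjusted p under 0.05 over all 18166 genes. In that comparison 6.76% of all genes were called higher and 7.81% lower. At 4 h Gclc, Gss, Gsr, Txnrd1 and Osgin1 were higher than control, again 5 of 10 and none lower, where 2.08% of all genes were called higher and 1.77% lower. At 8 h none of the 10 passed, where 0.022% of all genes were called higher and 0.0055% lower. All 10 log2 fold changes were above 0 at 8 h, and 4 of the genes had an unadjusted p under 0.05. The median log2 fold change of the 10 was 0.31 at 70 min, 0.33 at 4 h and 0.18 at 8 h, beside 0.03, 0.01 and 0.01 for all genes. The 3 comparisons share the same control arrays. In RNA from whole cultures, fewer cells of a type and less RNA per cell cannot be told apart.

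**Figure D1:**
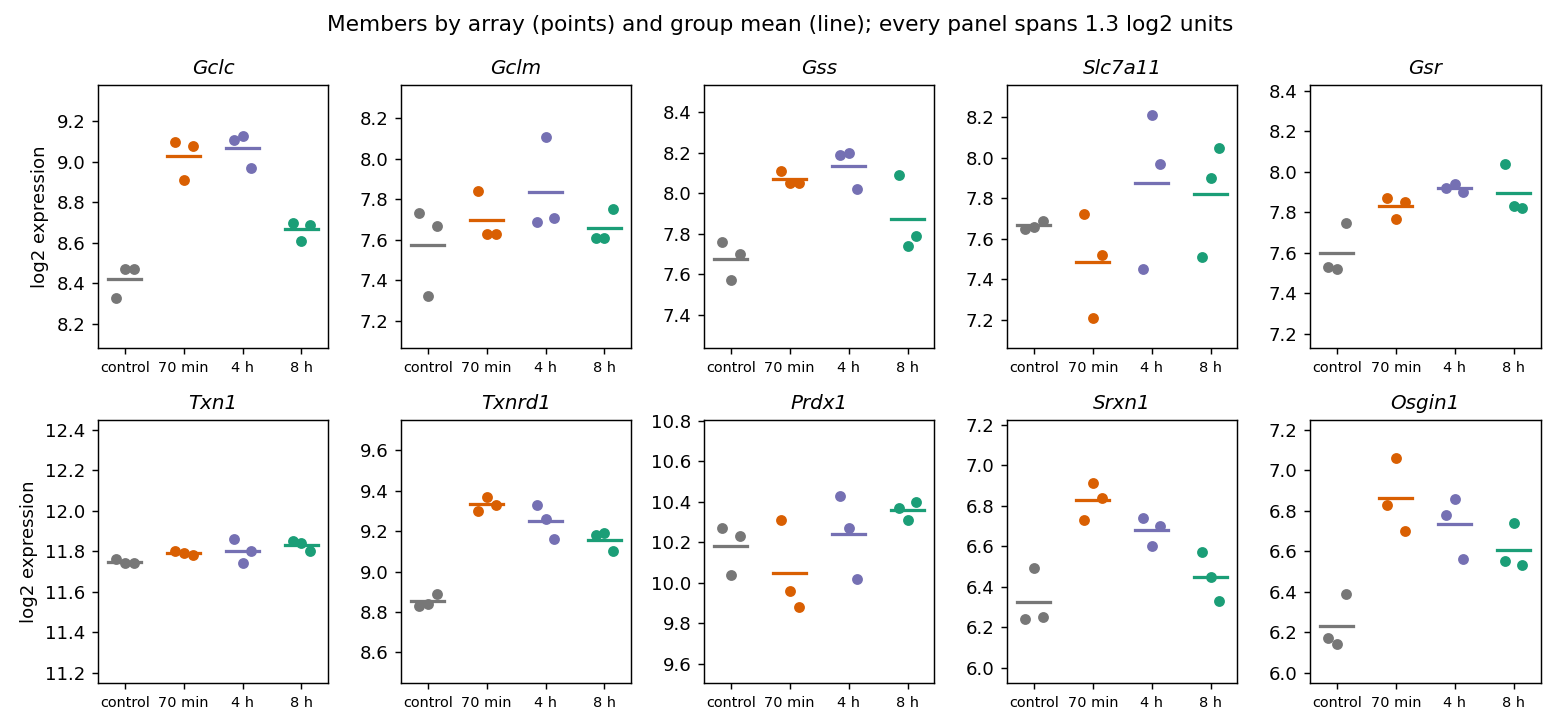
Log2 expression of the 10 genes on each array, by group in order of time; points are the 3 arrays of a group, short lines the group means, and every panel spans the same width in log2 units. The 70 min and 4 h points of Gclc, Gss, Txnrd1, Srxn1 and Osgin1 all lie above their control points, whereas Txn1 varies little and Slc7a11 spreads widely after SIN-1.

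Glutathione synthesis begins with glutamate-cysteine ligase, whose catalytic subunit is encoded by Gclc. Its values were 8.33, 8.47 and 8.47 log2 units in control cells, 9.10, 8.91 and 9.08 at 70 min, 9.11, 9.13 and 8.97 at 4 h, and 8.70, 8.61 and 8.69 at 8 h. Every treated array was above every control array at each time, and the 8 h arrays lay between the earlier treated arrays and the controls. Gclc was 1.52-fold higher than control at 70 min (log2 fold change 0.60 ± 0.07, SE, limma adjusted p = 2.23e-05) and 1.56-fold higher at 4 h (0.65 ± 0.07, 6.14e-05). At 8 h the log2 fold change was 0.24, with a 95% interval from 0.09 to 0.40 and an adjusted p of 0.654. Between times, Gclc fell by 0.40 at 8 h relative to 4 h (limma adjusted p = 0.00389) and by 0.36 relative to 70 min (0.00213). It is the one member that passed in 4 of the 6 comparisons, and its 2 calls against control held in all 23 alternatives tried. Several of these alternatives change the estimated spread and not the fold change.

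The modifier subunit of the same ligase, encoded by Gclm, lowers the enzyme's sensitivity to feedback by glutathione. Its values were 7.73, 7.32 and 7.67 in control cells, 7.84, 7.63 and 7.63 at 70 min, 7.69, 8.11 and 7.71 at 4 h, and 7.61, 7.61 and 7.75 at 8 h. The groups overlapped at every time. The log2 fold change of Gclm was 0.12 at 70 min (95% interval -0.13 to 0.38), 0.26 at 4 h (0.0028 to 0.52) and 0.08 at 8 h (-0.17 to 0.34), with limma adjusted p-values of 0.557, 0.323 and 0.99. At 4 h the interval included the size of the change in Gss, 0.46. Within arrays, Gclc minus Gclm was higher than in control by 0.48 log2 units at 70 min, 0.39 at 4 h and 0.16 at 8 h. An exact two-sided permutation test of 3 arrays against 3 gave p = 0.1, the smallest such a test can give, at 70 min, p = 0.2 at 4 h and p = 0.5 at 8 h. The promoter window of Gclm, chr2:213031885-213032184 on the + strand, is shown because it holds a TGACNNNGC match on the opposite strand, at positions -172 to -164 from the start, here in capitals.
Gclm: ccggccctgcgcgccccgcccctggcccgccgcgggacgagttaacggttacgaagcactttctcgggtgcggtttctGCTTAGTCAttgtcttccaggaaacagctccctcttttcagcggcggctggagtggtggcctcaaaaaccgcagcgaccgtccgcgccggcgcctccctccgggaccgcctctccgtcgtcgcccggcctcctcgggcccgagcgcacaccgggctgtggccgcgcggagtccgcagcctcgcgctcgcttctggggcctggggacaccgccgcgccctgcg

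Gss encodes glutathione synthetase, which adds glycine to complete the tripeptide. Its values were 7.76, 7.57 and 7.70 in control cells, 8.11, 8.05 and 8.05 at 70 min, 8.19, 8.20 and 8.02 at 4 h, and 8.09, 7.74 and 7.79 at 8 h. The 70 min and 4 h arrays all stood above the controls, and 8 h overlapped them because replicates 2 and 3 were low. Gss was 1.31-fold higher at 70 min (log2 fold change 0.39 ± 0.09, SE, limma adjusted p = 0.00843) and 1.38-fold higher at 4 h (0.46 ± 0.09, 0.00861). The 4 h call ended without control replicate 2 (adjusted p = 0.0609). The 70 min call ended with arrays centred on their medians (0.0694) and without the 3 arrays of highest median (0.0857), which leaves 1 array at 70 min. Without 8 h replicate 1, Gss fell at 8 h relative to 4 h (log2 fold change -0.37, adjusted p = 0.0317), where the full set gave -0.27 (0.157), and relative to 70 min (-0.31, 0.0287).

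Slc7a11 encodes the light chain of the cystine importer that supplies cysteine for glutathione. Its control values were 7.65, 7.66 and 7.69, followed by 7.72, 7.21 and 7.52 at 70 min, 7.45, 8.21 and 7.97 at 4 h, and 7.51, 7.90 and 8.05 at 8 h. The SD over 3 arrays was 0.02 in control cells and 0.26, 0.39 and 0.28 at the 3 times, so the treated arrays fell on both sides of the controls. Log2 fold changes against control were -0.19, 0.21 and 0.15 in order of time, with limma adjusted p-values of 0.518, 0.635 and 0.979. The 95% interval at 70 min reached from -0.54 to 0.17. Without 4 h replicate 1, Slc7a11 was higher at 4 h than at 70 min (0.61, adjusted p = 0.0214), where the full set gave 0.39 (0.193). Slc3a2, the heavy chain that carries the importer to the membrane, stood at 0.08, -0.03 and 0.10 against control and did not pass.

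Gsr encodes glutathione reductase, which returns oxidised glutathione to its thiol form with NADPH. Values were 7.53, 7.52 and 7.75 in control cells, 7.87, 7.77 and 7.85 at 70 min, 7.92, 7.94 and 7.90 at 4 h, and 8.04, 7.83 and 7.82 at 8 h. Every treated array exceeded every control array. The log2 fold change was 0.23 ± 0.09 (SE) at 70 min, 0.32 ± 0.09 at 4 h and 0.30 ± 0.09 at 8 h, with limma adjusted p-values of 0.0841, 0.0475 and 0.602. The 4 h call, close to the threshold, held in 9 of 23 alternatives and ended on leaving out any of several single arrays, among them control replicate 1 or 2 (0.202 and 0.206) and 4 h replicate 1, 2 or 3 (0.12, 0.111 and 0.0881). It also ended without 70 min replicate 2 or 3 (0.0545 and 0.0608) and 8 h replicate 2 or 3 (0.0688 and 0.052). The 70 min value passed without control replicate 3 (0.041) and after a further quantile normalization (0.0342). The near-equal fold changes at 4 h and 8 h carried very different adjusted p-values, adjustment being made over all genes within each comparison.

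Thioredoxin reductase, encoded by Txnrd1, is the selenoenzyme that recharges thioredoxin with NADPH. Txnrd1 had 8.83, 8.84 and 8.89 log2 units in control cells, 9.30, 9.37 and 9.33 at 70 min, 9.33, 9.26 and 9.16 at 4 h, and 9.18, 9.19 and 9.10 at 8 h. The groups were tight, and all 9 treated arrays lay above the controls. Txnrd1 was 1.40-fold higher at 70 min (log2 fold change 0.48 ± 0.06, SE, limma adjusted p = 3.72e-05) and 1.32-fold higher at 4 h (0.40 ± 0.06, 0.000927), and both calls held in all 23 alternatives. At 8 h it stood at 0.30, with a 95% interval from 0.17 to 0.43 and an adjusted p of 0.171. That value passed with array weights (0.0151), the one alternative in which any member passed at 8 h against control. At 8 h relative to 70 min it was at -0.18 (adjusted p = 0.054). The window of its start at chr7:22755855-22756154, on the - strand and written in the sense of the gene, is shown for a TGACNNNGC match on the opposite strand at positions -78 to -70, in capitals. The window of its other start held neither motif.
Txnrd1: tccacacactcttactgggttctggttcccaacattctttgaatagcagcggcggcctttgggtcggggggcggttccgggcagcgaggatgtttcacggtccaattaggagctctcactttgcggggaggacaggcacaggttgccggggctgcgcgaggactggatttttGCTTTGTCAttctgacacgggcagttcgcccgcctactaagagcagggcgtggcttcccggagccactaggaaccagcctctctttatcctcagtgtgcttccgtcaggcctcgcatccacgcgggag

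The substrate of that reductase, cytosolic thioredoxin, is encoded by Txn1. Values were 11.76, 11.74 and 11.74 in control cells, 11.80, 11.79 and 11.78 at 70 min, 11.86, 11.74 and 11.80 at 4 h, and 11.85, 11.84 and 11.80 at 8 h. All 70 min and 8 h arrays lay above the controls, but by little. Log2 fold changes were 0.04, 0.05 and 0.08 with limma adjusted p-values of 0.523, 0.605 and 0.91, and no 95% interval reached above 0.16. With arrays centred on their medians the 70 min value turned to -0.011. Within arrays, Txnrd1 minus Txn1 was higher than in control by 0.44, 0.35 and 0.22 log2 units at 70 min, 4 h and 8 h, each with an exact two-sided permutation p of 0.1, the smallest that 3 arrays against 3 allow. Adjusted over the 9 tests of 3 gene pairs at 3 times, these were 0.225.

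Prdx1 encodes a peroxiredoxin that uses thioredoxin to reduce peroxides and peroxynitrite. Its values were 10.27, 10.04 and 10.23 in control cells, 10.31, 9.96 and 9.88 at 70 min, 10.43, 10.27 and 10.02 at 4 h, and 10.37, 10.31 and 10.40 at 8 h. The arrays with the highest medians, 70 min replicates 2 and 3 and 4 h replicate 3, had its 3 lowest values; their part in the result was not tested. Log2 fold changes of Prdx1 against control were -0.13, 0.06 and 0.18 in order of time (limma adjusted p = 0.462, 0.868 and 0.937), and the 70 min value turned to 0.13 without those 3 arrays and to 0.04 with the array median as a covariate. At 8 h relative to 70 min it stood at 0.30 with an adjusted p of 0.056, and it passed in 8 of 23 alternatives, with values from 0.048 to 0.433. It passed on leaving out 70 min replicate 1 (0.43, 0.00446), 4 h replicate 1 (0.0364) or 4 h replicate 3 (0.0319). It came to 0.048 without the 3 arrays of highest median (0.872) and to 0.057 with the array median as a covariate (0.752). Its 8 h arrays all lay above the controls. The rat genome holds several annotated Prdx1 pseudogenes, and whether their transcripts share probe signal with Prdx1 was not tested. Its window, chr5:135383656-135383955 on the + strand, holds TGANTCA at positions -248 to -242 and -133 to -127, the second overlapping a TGACNNNGC match on the opposite strand at -135 to -127. The capitals mark these.
Prdx1: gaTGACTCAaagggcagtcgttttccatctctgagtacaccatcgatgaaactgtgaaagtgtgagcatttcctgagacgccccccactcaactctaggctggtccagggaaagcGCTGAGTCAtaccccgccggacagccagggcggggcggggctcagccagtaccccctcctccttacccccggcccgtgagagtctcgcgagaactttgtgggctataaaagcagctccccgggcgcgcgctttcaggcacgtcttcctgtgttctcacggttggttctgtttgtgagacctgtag

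Srxn1 encodes sulfiredoxin, which repairs peroxiredoxins whose catalytic cysteine has been over-oxidised. Its values were 6.24, 6.49 and 6.25 in control cells, 6.73, 6.91 and 6.84 at 70 min, 6.74, 6.60 and 6.70 at 4 h, and 6.57, 6.45 and 6.33 at 8 h. The 70 min and 4 h arrays were all above the controls, and the 8 h arrays overlapped them and lay below all of the earlier treated ones. Srxn1 was 1.41-fold higher at 70 min (log2 fold change 0.50 ± 0.10, SE, limma adjusted p = 0.0031). It stood at 0.35 at 4 h (0.0781) and 0.12 at 8 h (0.958). Relative to 70 min, Srxn1 fell by 0.38 at 8 h (adjusted p = 0.0197), but not on leaving out 70 min replicate 2 (0.0818) or 3 (0.064) or 8 h replicate 2 (0.0617) or 3 (0.0904). The 70 min call ended without the 3 arrays of highest median (0.40, adjusted p = 0.157). At 4 h it passed with array weights, with the array median as a covariate and among the brighter genes (0.0484, 0.0454 and 0.0415). Within arrays, Srxn1 minus Prdx1 differed from control by 0.63 log2 units at 70 min, 0.29 at 4 h and -0.05 at 8 h, with exact two-sided permutation p-values of 0.2, 0.3 and 0.8. Its window, chr3:161064562-161064861 on the + strand, is shown for 2 TGANTCA matches, at positions -62 to -56 and -5 to 2, in capitals.
Srxn1: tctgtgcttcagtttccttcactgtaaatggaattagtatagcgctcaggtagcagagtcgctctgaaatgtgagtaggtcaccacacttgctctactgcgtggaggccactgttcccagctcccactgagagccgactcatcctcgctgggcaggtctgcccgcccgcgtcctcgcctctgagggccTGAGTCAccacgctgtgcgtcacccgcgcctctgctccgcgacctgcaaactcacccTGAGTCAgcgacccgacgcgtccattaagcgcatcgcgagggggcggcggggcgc

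Osgin1 encodes an oxidative stress-induced growth inhibitor. Values were 6.17, 6.14 and 6.39 in control cells, 6.83, 7.06 and 6.70 at 70 min, 6.78, 6.86 and 6.56 at 4 h, and 6.55, 6.74 and 6.53 at 8 h. All treated arrays lay above the controls, with group means of 6.86, 6.74 and 6.61 in order of time. Osgin1 was 1.55-fold higher at 70 min (log2 fold change 0.63 ± 0.12, SE, limma adjusted p = 0.00131), and its value at 8 h was 0.38 with a 95% interval from 0.13 to 0.63 (0.708). At 4 h it was 1.42-fold higher (0.0229). Leaving out control replicate 1 gave 0.101 and control replicate 2 gave 0.115, and the call ended likewise without 4 h replicate 1 (0.0825) or replicate 2 (0.0864). It ended also without a trend in the prior variance and with arrays centred on their medians (0.0537 and 0.0635).

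**Figure D2:**
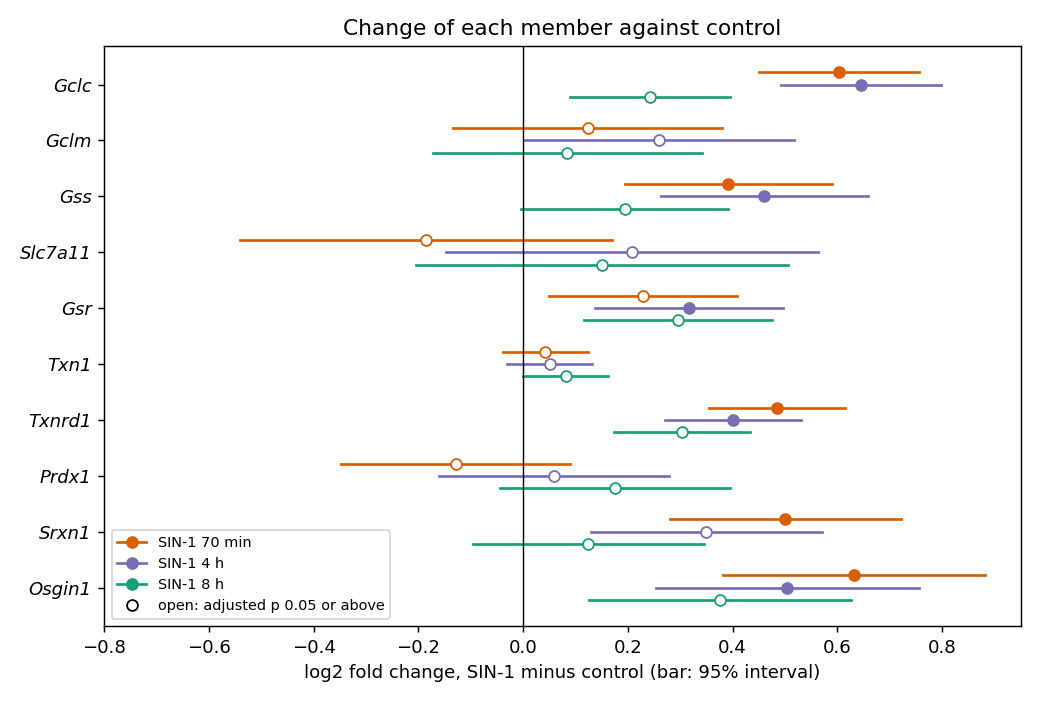
Log2 fold change against control (SIN-1 minus control) of each gene at 70 min, 4 h and 8 h, with 95% intervals from limma; filled circles passed an adjusted p under 0.05 over all genes. Gclc and Osgin1 lie farthest to the right at 70 min, at 0.60 and 0.63, and all 8 h circles are open.

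Counting arrays rather than calls, all 3 treated values lay above all 3 control values for 7 of the 10 genes at 70 min, 6 at 4 h and 6 at 8 h. The shares of all genes with such separation were 16.8%, 11.6% and 7.98%. No member had all treated values below the controls at any time, where 15%, 8.71% and 5.24% of all genes did. Gclc, Gsr, Txnrd1 and Osgin1 were separated at each of the 3 times.

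Calls between treated times were as follows. At 4 h relative to 70 min none of the 10 passed, and 1 of them had an unadjusted p under 0.05. Of all genes 7.63% passed, a share at which 10 genes may well give no call. Leaving out 70 min replicate 1 or 4 h replicate 1 gave 1 call each, Prdx1 (adjusted p = 0.0461) and Slc7a11. At 8 h relative to 4 h only Gclc was lower, where 1.54% of all genes were. At 8 h relative to 70 min Gclc and Srxn1 were lower, where 6.43% of all genes were lower and 9.56% higher. These 2 comparisons gave no call with arrays centred on their medians.

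Over all 4 groups, limma's F test passed for Gclc, Txnrd1, Osgin1, Gss, Srxn1 and Gsr, with adjusted p-values of 1.33e-05, 0.000121, 0.00524, 0.00703, 0.00902 and 0.0443. It did not pass for Prdx1, Slc7a11, Gclm and Txn1 (0.207, 0.322, 0.456 and 0.473). Of the 3 genes with TGACNNNGC in a window, the F test passed for Txnrd1 and not for Gclm and Prdx1. It passed for Srxn1, whose window held TGANTCA alone, and for Gclc, Gss and Osgin1 with neither motif in theirs. Gsr passed and had no window listed. The part of these motifs in the changes was not tested. Elements farther from the start were not examined.

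**Figure D3:**
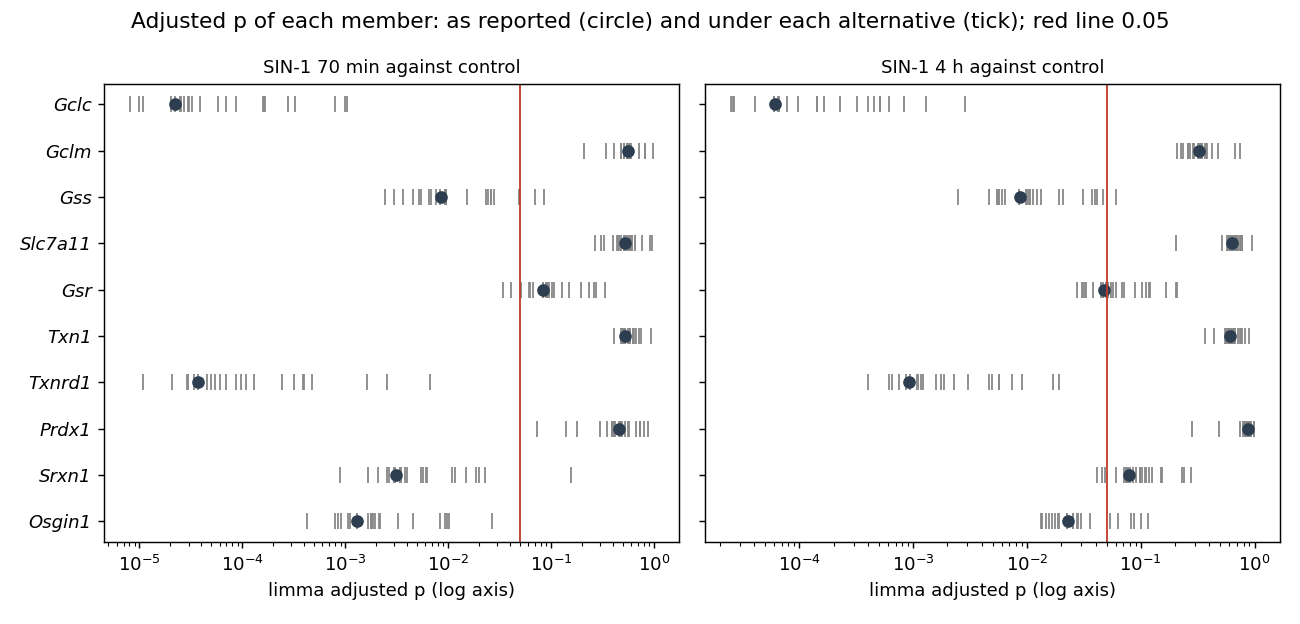
Limma adjusted p of each gene at 70 min and 4 h against control on a log axis, as reported (circle) and under 23 alternatives (ticks), with 0.05 as a red line. Gclc and Txnrd1 stay left of the line throughout in both panels, whereas Gsr at 4 h lies on both sides.

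The genes with a time course most like that of Gclc were Cds1, Odc1, Bmf, Gemin6 and Rfwd3, out of 2451 genes at or above the median level that were called against control at 1 time or more. Likeness was the root mean square difference of the 3 log2 fold changes against control, which came to 0.054 for Cds1 and 0.084 for Rfwd3. Odc1, which encodes the rate-limiting enzyme of polyamine synthesis, stood at 0.69, 0.56 and 0.22 in order of time. Bmf, a pro-apoptotic member of the BCL2 family, stood at 0.55, 0.53 and 0.22.

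Beyond the 10 genes, 19 other NRF2 targets were measured. Of these, 3 rose and 7 fell at 70 min, 5 rose and none fell at 4 h, and 4 rose and none fell at 8 h, with list medians of -0.08, 0.11 and 0.24. The shares of all genes called higher and lower were 6.76% and 7.81% at 70 min, 2.08% and 1.77% at 4 h, and 0.022% and 0.0055% at 8 h. At 70 min Hmox1, which encodes heme oxygenase, rose by 1.10 and Ugdh, which makes UDP-glucuronate, by 0.68, while the aldehyde oxidase gene Aox1 fell by 1.07 and the epoxide hydrolase gene Ephx1 fell by 0.89. Without the 3 arrays of highest median, an alternative chosen after the data were seen, 4 rose and 4 fell at 70 min. The 4 that rose at 8 h were Abcc4, Ptgr1, Hmox1 and Nqo1, at 0.68, 0.65, 0.64 and 0.47 (limma adjusted p = 0.000113, 0.000772, 0.00152 and 0.000113). They were the only genes called higher at 8 h among all 18166. Txnrd1 and Osgin1, the members with the highest values then, stood at 0.30 and 0.38. Members and lists were chosen with earlier results of these data known, so this contrast is not independent evidence of a difference between them. For the same reason, the counts of this list beside the shares of all genes are not independent evidence.

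Among 34 other glutathione genes measured, none rose and 7 fell at 70 min, where 6.76% of all genes were called higher and 7.81% lower. Gstt2, a glutathione transferase gene, fell by 0.97, and Anpep, an aminopeptidase that acts on the breakdown products of glutathione outside the cell, fell by 0.71. Hagh, which encodes the thiolester hydrolase of the glyoxalase pathway, fell by 0.67, and Chac1, whose product degrades glutathione in the cytosol, fell by 0.60. Of the 7, 4 were from the transferase family (Gstt2, Gstm2, Gsta4 and Gstm1), whose paralogs can share probe signal. Without the 3 arrays of highest median 4 fell. At 4 h Chac1 rose by 0.39 (adjusted p = 0.0161) and Anpep fell by 0.39 (0.0416), and at 8 h none passed; the list medians were -0.11, -0.01 and 0.11.

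Of 27 other thioredoxin and peroxiredoxin genes, 3 rose and 3 fell at 70 min, 2 rose at 4 h and none passed at 8 h, with medians of -0.03, 0.07 and 0.09. Of all genes, 6.76% were called higher and 7.81% lower at 70 min, and 2.08% higher at 4 h. Sesn3, a stress-responsive sestrin gene, fell by 1.49 at 70 min, the glutaredoxin gene Glrx fell by 0.53, and Txnip, which encodes an inhibitor of thioredoxin, fell by 0.45. The methionine sulfoxide reductase gene Msrb3 rose by 0.50. Txnip rose by 0.43 at 4 h and Glrx3 by 0.23. Without the 3 arrays of highest median 1 rose and 2 fell at 70 min, and 3 rose at 4 h.

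The NADPH on which both reductases draw comes in part from genes of which 9 were measured. Idh1, the cytosolic isocitrate dehydrogenase gene, fell by 0.60 at 70 min, and Taldo1, of the pentose phosphate pathway, rose by 0.29 at 4 h (adjusted p = 0.025); none passed at 8 h. Of all genes, 7.81% were called lower at 70 min and 2.08% higher at 4 h. The list medians were -0.13, 0.01 and 0.17. Without the 3 arrays of highest median, no gene of this list passed at 4 h.

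Of 11 transcripts of the NRF2 regulatory machinery measured, none was called against control at any time. Of all genes, 6.76% were called higher and 7.81% lower at 70 min. The shares were 2.08% and 1.77% at 4 h, and 0.022% and 0.0055% at 8 h. At such shares a list of 11 may give few calls or none. At 4 h Mafg, which encodes a small MAF partner of NRF2, stood at -0.34 (adjusted p = 0.0764). Mafg was lower at 4 h than at 70 min (-0.41, limma adjusted p = 0.016) and higher at 8 h than at 4 h (0.48, 0.0107). At 8 h relative to 70 min Keap1, Nfe2l1 and Atf4 were higher by 0.28, 0.20 and 0.18 (limma adjusted p = 0.0496, 0.0359 and 0.0167). In that comparison 9.56% of all genes were called higher. Against control, Nfe2l2, which encodes NRF2, stood at -0.03, -0.10 and -0.02 in order of time, with 95% intervals between -0.19 and 0.08. Keap1, the gene of its repressor, was at -0.11, 0.06 and 0.16, and Bach1, which encodes a competing repressor at the same elements, at 0.12, 0.05 and 0.03. The smallest limma adjusted p of Nfe2l2, Keap1 and Bach1 against control was 0.354. NRF2 is regulated largely through the stability of its protein, which arrays do not measure.

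**Figure D4:**
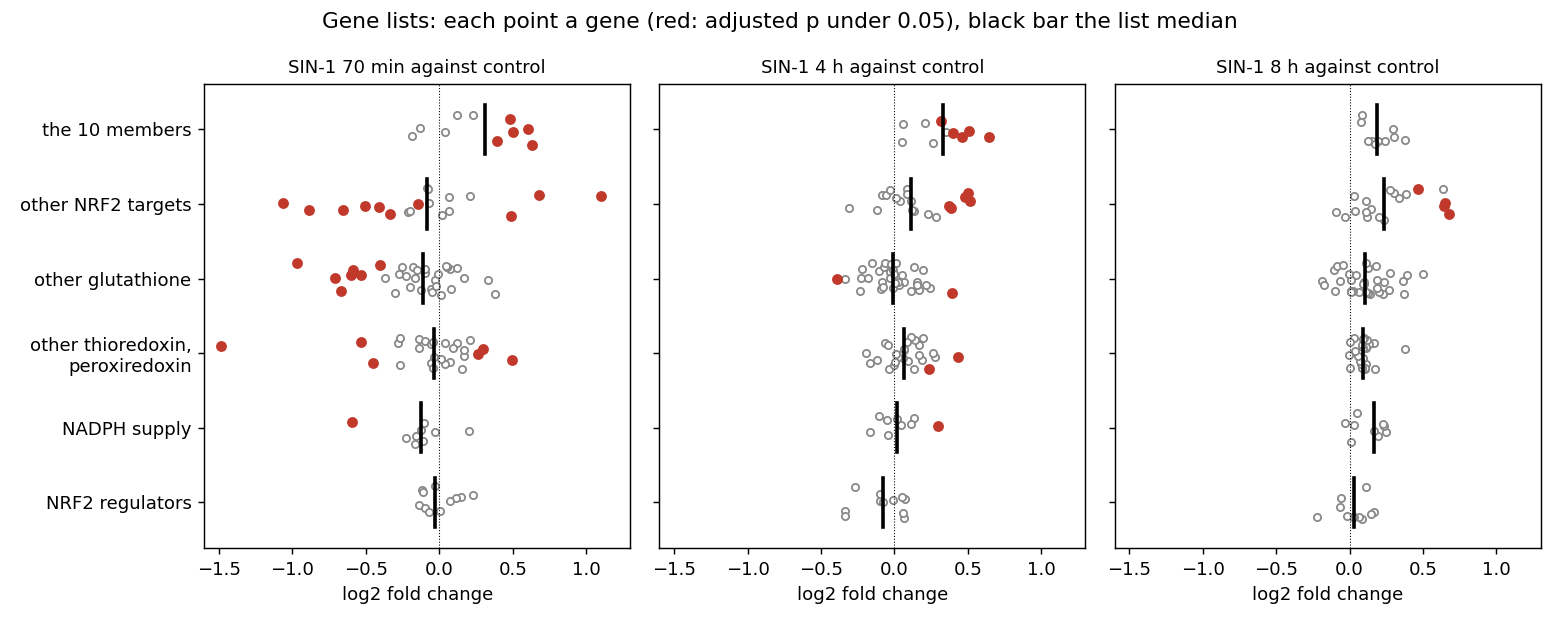
Log2 fold change against control of every measured gene of 6 lists at 70 min, 4 h and 8 h; red points passed a limma adjusted p under 0.05 over all genes and black bars are list medians. The 10 genes have no red point left of 0 at any time. At 70 min 7 of 19 other NRF2 targets and 7 of 34 other glutathione genes do, where 7.81% of all genes were called lower.

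Of the markers of other cell types, 3 of 8 for fibroblasts, 1 of 4 for endothelium, 1 of 3 for smooth muscle and 0 of 6 for macrophages and leukocytes passed at 70 min. Among all genes 6.76% were called higher and 7.81% lower at that time. The mean of 8 fibroblast markers was 9.05 to 9.19 log2 units on the 70 min arrays, against 9.49 to 9.55 on the control arrays, and Lum, Dcn and Col3a1 fell by 1.42, 1.05 and 0.41. The endothelial receptor gene Tek fell by 0.88, and Tagln rose by 0.13. At 4 h the fibroblast mean was 9.33 to 9.43 and at 8 h 9.49 to 9.61. The mean of 9 cardiomyocyte markers was 4.88 to 5.16 at 70 min against 4.89 to 5.05 in control, and that of 3 smooth muscle markers 8.99 to 9.23 against 9.07 to 9.15. The mean of 4 endothelial markers was 4.52 to 4.71 at 70 min against 4.66 to 4.85 in control, and that of 6 macrophage and leukocyte markers 4.56 to 4.68 against 4.50 to 4.66. The group ranges of these last 4 means overlapped between 70 min and control. At 8 h the smooth muscle mean was 9.19 to 9.22, above its control range, while the cardiomyocyte, endothelial and macrophage and leukocyte means overlapped control. At 4 h 1 of 9 cardiomyocyte markers, Pln, was called lower (-0.44, limma adjusted p = 0.0132). So was 1 of 8 fibroblast markers, Col3a1 (-0.18, 0.0108), where 1.77% of all genes were called lower. The part of these differences in the results for the 10 genes was not tested.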

How the data were processed

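Total RNA was read on 12 arrays of 1 colour. Per the submitters' processing notes the authors ran RMA in Expression Console 1.3.1.187 (Affymetrix). Their deposited table holds 36685 probes and is read here as log2 expression, a scale inferred from its range of 1.19 to 13.63. RMA corrects background and normalizes quantiles between arrays, so differences in total RNA are removed and small folds near background are compressed. A genome build is not given in the sources used here.

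Probes were named by the platform annotation: 18511 had 1 symbol, 575 several (not used) and 17599 are unnamed here. The probe with the highest mean was kept per symbol, leaving 18166 genes. In R 4.3.3, limma 3.58.1 fitted 1 mean per group over the 12 arrays (lmFit, contrasts.fit, eBayes with trend), giving two-sided tests for 6 comparisons, adjusted by Benjamini-Hochberg within each and called at an adjusted p under 0.05. Over all genes and comparisons the SE had a median of 0.131; precision is limited by the array number. The script was tested on simulated data. All members were named; of further lists up to 4 called genes with the largest change, plus Nfe2l2, Keap1 and Bach1. The 5 genes most like Gclc were named by the rule given with them. Gstm2, Gsta4, Gstm1, Slc3a2, Mafg, Nfe2l1, Atf4 and the marker genes were named outside that rule after their values were seen. List counts without the 3 arrays of highest median were added after seeing the data. The members and lists were chosen with earlier results of these data known. Partner genes were compared by an exact permutation test over arrays. Alternatives were the replicate block, no trend, a robust prior, array weights, a further quantile normalization, centring, the array median as covariate, brighter genes alone, the mean of probes, compared groups alone and arrays left out. Several of them, such as the replicate block and no trend, change the estimated spread but not a member's fold change. Each member had 1 probe, so the mean of probes left its values as they were. Figures used matplotlib 3.10.9.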

Additional observations from a re-analysis of the deposited data

Results flagged for a closer look

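Gclc differed between treated times. It was lower at 8 h than at 4 h, with a log2 difference of -0.40 (limma adjusted p = 0.00389). It was also lower at 8 h than at 70 min, with a log2 difference of -0.36 (limma adjusted p = 0.00213). Both differences were tested by the contrast of the 2 treated groups. Each held in 22 of 23 alternatives and ended with arrays centred on their medians (0.0599 and 0.0622). Srxn1 was also lower at 8 h than at 70 min, with a log2 difference of -0.38 (limma adjusted p = 0.0197). That difference passed in 16 of 23 alternatives, with values from -0.453 to -0.275. With the array median as a covariate its limma adjusted p was 0.153. The sources used here give no control matched to each treated time. Time under SIN-1 and time in culture therefore cannot be told apart in these differences.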

How the results depend on the processing

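Members called against control numbered 5, 5 and 0 at 70 min, 4 h and 8 h, and 0, 1 and 2 for 4 h against 70 min, 8 h against 4 h and 8 h against 70 min. Leaving out 1 array in turn gave 5 to 6, 2 to 5 and 0 to 0 against control, and 0 to 1, 1 to 2 and 1 to 4 between times. At 4 h against control the count was 3 without the trend and 3 with arrays centred on their medians; at 70 min it was 3 without the 3 arrays of highest median, and at 8 h 1 with array weights. At 8 h against 4 h it was 2 with array weights and 0 with centring. At 8 h against 70 min it was 6 with array weights, 0 with centring, 1 with the array median as a covariate, 4 among brighter genes and 1 without the 3 arrays. The causes were not tested. With the replicate block the counts were 5, 4 and 0 against control, the lost call being Gsr (adjusted p = 0.057), and 0, 1 and 3 between times, the added call being Prdx1 (0.0223). Deviations of same-numbered arrays correlated from -0.32 to 0.24, and 5 of 18 correlations were above 0.1. The labels do not say whether same-numbered arrays came from matched cultures, and these correlations cannot settle it.

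Over all genes, 2647, 699 and 5 were called at 70 min, 4 h and 8 h, and 1386, 637 and 2904 between times in the same order. Counts over 1.5 times away were 339 at 4 h, 2 at 8 h and 315 at 8 h against 4 h without the trend; 341 and 300 at 4 h and at 8 h against 4 h with centring; 37 at 8 h with array weights and 9 with the block; 1929 at 8 h against 70 min with the array median as a covariate; 763 and 330 at 4 h against 70 min and 8 h against 4 h with the compared groups alone. Without the 3 arrays of highest median they were 1046 at 70 min, 318 at 4 h against 70 min and 1181 at 8 h against 70 min. Leaving out 1 array gave 1751 to 3106, 373 to 757 and 5 to 7 against control, and 885 to 1799, 299 to 671 and 2003 to 3386 between times.

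Of the 60 member fold changes, 15 turned in sign under 1 or more alternatives, 24 times in all, none of them called in either setting. With centring these were Txn1 at 70 min against control (-0.011), Gsr at 8 h against 4 h (0.001) and Gclm at 8 h against 70 min (0.039). With the array median as a covariate they were Prdx1 at 70 min (0.039) and, at 4 h against 70 min, Gclc (-0.012) and Gss (-0.00019). With array weights it was Slc7a11 at 8 h against 4 h (0.014). Without the 3 arrays of highest median they were Slc7a11 and Prdx1 at 70 min (0.049 and 0.128) and Txn1 at 4 h against 70 min (-0.008). Leaving out 1 array, the values that turned ran against control from -0.004 to 0.203 for Gclm at 70 min, -0.044 to 0.163 for Gclm at 8 h and -0.037 to 0.169 for Prdx1 at 4 h, which reached -0.011 without control replicate 2. At 4 h against 70 min they ran from -0.019 to 0.091 for Gclc, -0.00076 to 0.208 for Gclm and -0.021 to 0.039 for Txn1. At 8 h against 4 h they ran from -0.272 to 0.109 for Slc7a11, -0.091 to 0.019 for Gsr and -0.00016 to 0.06 for Txn1, and at 8 h against 70 min from -0.086 to 0.03 for Gclm and -0.004 to 0.106 for Gsr.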

Other observations

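Several redox genes outside the 10 passed in opposite directions at 70 min and 4 h. Txnip, which encodes an inhibitor of thioredoxin, averaged 9.65 ± 0.09 log2 units at 70 min and 10.54 ± 0.02 at 4 h, against 10.11 ± 0.04 in control (SD, n = 3 each), and was higher at 4 h than at 70 min by 0.89 (limma adjusted p = 2.37e-08). Chac1, whose product degrades glutathione, averaged 8.24 ± 0.18 at 70 min and 9.23 ± 0.08 at 4 h, against 8.84 ± 0.04 in control (SD, n = 3 each), a rise of 0.99 between the 2 times (1.04e-06). The transporter gene Abcc4 was higher at 4 h than at 70 min by 1.03 (3.58e-08) and the reductase gene Ptgr1 by 0.80 (2.49e-06). None of the 10 genes passed in that comparison by limma, at its full set of arrays, where 7.63% of all genes did.

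At 8 h relative to 70 min, 14 of the 34 other glutathione genes rose and none fell, where 9.56% of all genes rose and 6.43% fell. These 14 include the 7 that were lower than control at 70 min, and none of the 34 passed at 8 h against control. Both comparisons use the same 70 min arrays, so low values there favour both calls and the overlap is not separate evidence. Gstt2, a glutathione transferase gene, averaged 7.69 ± 0.02 log2 units at 8 h and 6.36 ± 0.18 at 70 min, against 7.32 ± 0.08 in control (SD, n = 3 each). Its log2 fold change at 8 h relative to 70 min was 1.33 ± 0.13 (SE, limma adjusted p = 1.64e-06). In the same comparison Gclc and Srxn1 fell.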
